A study of Mus musculus with 27 samples.

Results

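The last step of the culture, from day 16 to day 18 of differentiation, was described by comparing the 3 profiles labelled day 16 with the 3 labelled day 18, 6 of the 27 profiles in the series. Of 37991 genes in the files, the 14656 with at least 30 estimated counts summed over these 6 profiles were compared. The cells came from skull vault bones (calvariae) of neonatal C57BL/6J-Col3.6 CFP mice aged 5 to 9 days. These mice carry a cyan fluorescent protein driven by Col3.6, a fragment of the type I collagen promoter, which is active in the osteoblast lineage and in other cells that make this collagen. After 4 days of growth, cells with the fluorescent protein were sorted and returned to culture in αMEM with ascorbic acid, 4 mM β-glycerol phosphate and 10% serum, and these conditions were shared by both days. RNA was taken at 9 time points, and the complementary DNA was amplified before sequencing. The labels number the 3 profiles of a day as replicates and the study calls them triplicate samples, but they carried 1 barcode and came from 3 lanes. Each day was therefore treated here as 1 library, so that no spread between cultures was available and the difference between the days was not tested. Changes were therefore ranked by size.

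Pre-osteoblasts given ascorbic acid lay down a matrix rich in type I collagen, and β-glycerol phosphate then supplies the phosphate with which that matrix mineralises. Late in such cultures osteoblasts make osteocalcin and bone sialoprotein, and some take on genes of the osteocyte, the cell buried in mineral. Calvarial preparations can also hold cells of other lineages, among them macrophages, which depend on the receptor Csf1r and on the transcription factor PU.1, and precursors of adipocytes.

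The libraries held 50541939 estimated counts on day 16 and 44462028 on day 18. Reads that fit more than one transcript are divided among these in an estimated count, which then need not be a whole number. Over the 10045 and 10017 genes whose counts were whole in all 3 profiles of day 16 and of day 18, differences between lanes did not exceed sampling noise (chi-square tests on counts, p = 0.389 on day 16 and p = 0.537 on day 18). Over all genes with enough counts the lanes did differ by more than that, the chi-square divided by its degrees of freedom being 1.26 on day 16 and 1.45 on day 18, so that intervals of genes with divided reads are too narrow. All 6 osteoblast markers checked (Col1a1, Bglap, Ibsp, Alpl, Sp7 and Runx2) were present on both days. Together they reached 4382, 3615 and 4640 TPM on days 14, 16 and 18, of which Col1a1 alone held 4249, 3331 and 4263 TPM. TPM is a length-corrected abundance, given here after each profile was scaled to a common upper quartile. Of the 4 osteocyte markers, Phex and Dmp1 were measured while Sost and Mepe stayed under the count minimum. The highest of 4 endothelial markers was at 6.80 TPM on day 16 and at 6.34 on day 18, and the highest of 7 markers of mast cells, neutrophils, lymphoid and erythroid cells was at 1.62 and 1.22 TPM.

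Most genes moved little. On the log2 scale, with both libraries brought to a common upper quartile, the differences between day 18 and day 16 had a median of -0.01 and a standard deviation of 0.607 over genes, and 81.6% of genes lay within 0.5. A gene was called when the days differed by at least 2-fold. Called higher on day 18 were 523 genes (3.57%) and called lower were 426 (2.91%). Many of these had few reads, with a median of 83 counts over both days among the genes called higher against 1217 among all genes. For 198 of the higher and 118 of the lower genes the exact 95% Clopper-Pearson interval of the ratio, which covers counting error only, lay wholly past 2-fold. Among the 9823 genes with a mean of at least 5 TPM, 73 were higher (0.743%) and 36 were lower (0.366%). The genes of whole-number counts and at least 5 TPM nearest to the threshold were Isg15 and Ssbp4 just inside at 1.00 and 1.01, Lmo2 and Slc40a1 just outside at 0.98 and 0.97, and Eid2 just outside on the low side at -0.99. Also at the lower edge were Bloc1s2 and Gm1673 just inside (187 and 80 counts, 61 and 26 counts) and Fhit just outside (121 and 52 counts).

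**Figure D1:**
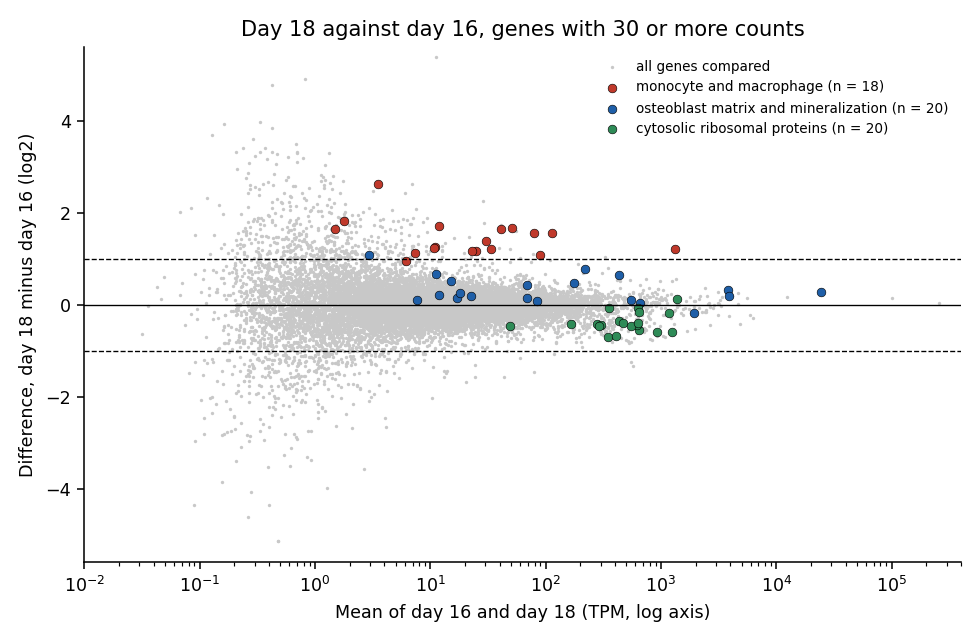
The difference between day 18 and day 16 (log2, vertical axis) is plotted against the mean level of both days (TPM, log axis) for 14628 genes as grey points, with 28 genes outside the axes. Coloured points are members of 3 gene lists, and dashed lines mark 2-fold. The monocyte and macrophage members lie near or above the upper line, the osteoblast matrix members mostly between 0 and 1, and the ribosomal protein members mostly below 0.

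The largest median difference among the 33 gene lists examined was that of the monocyte and macrophage list. Of its 20 genes, 18 had enough counts to compare, and 17 of these 18 were at least 2-fold higher on day 18, beside 3.57% of all genes. Their median difference was 1.32 on the log2 scale, beside -0.01 for all genes, and they ranged from 0.96 for Itgam to 2.64 for Aif1. The summed level of the list was 676 TPM on day 14, 1114 TPM on day 16 and 2632 TPM on day 18. In whole cultures such as these, more cells of a type and more RNA per cell cannot be told apart. The list supplied 14 of the 73 genes called higher at 5 TPM or more.

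Lyz2, which encodes the lysozyme of macrophages, was the most abundant of them. Its counts in the 3 profiles of day 16 were 8298, 8725 and 8764, and on day 18 they were 16882, 17280 and 17450. The lanes of the days did not overlap, which here and for the genes that follow sets the difference against the noise between lanes only, not between cultures. The level rose from 813 to 1855 TPM, a log2 difference of 1.22 whose 95% interval had an upper bound of 1.24. Part of these reads is shared with its near-identical neighbour Lyz1, whose own difference was 1.60. Only 4 genes gained more TPM between the days, namely mt-Rnr1, Sparc, mt-Rnr2 and mt-Co1.

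Genes for receptors and lysosomal proteins of macrophages changed in the same direction. Csf1r, the receptor for the macrophage growth factors Csf1 and Il34, had 195, 166 and 214 counts on day 16 and 361, 437 and 394 on day 18. Emr1, the F4/80 antigen of mature macrophages, had 158, 175 and 149 counts on day 16 and 423, 493 and 454 on day 18. The day 18 lanes were higher for both receptors, with log2 differences of 1.27 (1.12 to 1.41) for Csf1r and 1.72 (1.57 to 1.88) for Emr1. Cd68, a glycoprotein of the lysosomal membrane, rose from 43.9 to 114 TPM. Laptm5, another lysosomal membrane protein of blood cells, went from 56.2 to 171 TPM, and both had a log2 difference of 1.57. The mannose receptor Mrc1, a scavenging receptor of tissue macrophages, rose from 15.8 to 34.3 TPM with a smaller difference of 1.17 (1.10 to 1.24).

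The 3 chains of complement C1q, which tissue macrophages secrete, moved together. C1qc had 213, 249 and 242 counts on day 16 and 611, 667 and 658 on day 18. C1qb had 173, 161 and 167 counts on day 16 and 441, 447 and 460 on day 18. The day 18 lanes were higher for both chains, with log2 differences of 1.67 for C1qc and 1.64 for C1qb, and C1qa differed by 1.24 (0.96 to 1.53). Of the 13 genes of the wider complement list that could be compared, 2 were called higher, beside 3.57% of all genes, and both were receptors of leukocytes for complement fragments. These were C5ar1 with a difference of 1.84 and C3ar1 with 1.29, while the median of the list was 0.32. C3 itself differed by 0.50.

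Sfpi1, the gene for PU.1, the transcription factor on which macrophage development depends, had 40, 41 and 33 counts on day 16 and 107, 126 and 118 on day 18. The day 18 lanes were higher, and the log2 difference was 1.83 (1.53 to 2.16). PU.1 binds purine-rich stretches known as PU boxes. The promoters of 4 members of the list that rose together are shown here because they are the 4 with the largest log2 differences among those with at least 5 TPM and a matched RefSeq window. Each window runs from 250 bases before to 50 bases after the start of the gene, 5′ to 3′ on the strand of the gene, in build GRCm38.p6, and capitals mark GAGGAA or its complement TTCCTC, the core letters of the PU box.
C1qc (chr4:136892865-136893164, minus strand): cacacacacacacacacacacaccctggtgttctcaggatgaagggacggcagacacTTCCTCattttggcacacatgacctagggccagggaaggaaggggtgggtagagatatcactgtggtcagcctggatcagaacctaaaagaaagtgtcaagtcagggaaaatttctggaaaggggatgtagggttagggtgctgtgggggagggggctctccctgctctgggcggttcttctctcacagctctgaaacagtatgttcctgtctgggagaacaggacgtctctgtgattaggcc
C1qb (chr4:136886151-136886450, minus strand): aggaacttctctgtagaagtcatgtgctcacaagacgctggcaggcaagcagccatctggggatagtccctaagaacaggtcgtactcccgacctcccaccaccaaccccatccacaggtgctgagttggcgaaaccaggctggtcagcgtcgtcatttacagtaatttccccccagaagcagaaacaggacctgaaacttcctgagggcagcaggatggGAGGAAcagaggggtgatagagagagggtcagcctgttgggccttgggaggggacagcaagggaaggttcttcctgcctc
Cd68 (chr11:69666121-69666420, minus strand): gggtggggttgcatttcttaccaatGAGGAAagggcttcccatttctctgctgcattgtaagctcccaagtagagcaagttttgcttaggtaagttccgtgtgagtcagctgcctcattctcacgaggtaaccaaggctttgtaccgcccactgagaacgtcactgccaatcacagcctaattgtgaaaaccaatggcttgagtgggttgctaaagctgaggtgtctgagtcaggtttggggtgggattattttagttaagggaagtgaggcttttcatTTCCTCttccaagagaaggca
Laptm5 (chr4:130913066-130913365, plus strand): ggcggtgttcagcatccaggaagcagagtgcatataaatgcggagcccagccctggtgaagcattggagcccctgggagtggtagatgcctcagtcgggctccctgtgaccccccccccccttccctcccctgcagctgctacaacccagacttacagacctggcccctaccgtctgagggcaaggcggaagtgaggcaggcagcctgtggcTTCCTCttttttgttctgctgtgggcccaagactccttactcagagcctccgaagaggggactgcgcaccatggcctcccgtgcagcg
One such stretch stood in the windows of C1qc, C1qb and Laptm5 and 2 in that of Cd68. Windows were found by symbol for 14 of the 20 list members. The letters occurred for 11 of these 14, but not for Lyz2, Fcer1g or Cx3cr1. On either strand the letters occurred in 28.3% of all 32851 windows in the table and for 31.3% of its 27025 genes. They were chosen after longer forms of the box had been looked at in the windows of this list, so their presence in it is no test. A match is a stretch of letters and not a binding site, and no binding of PU.1 was measured. Csf1r, Emr1, Cd14, C1qa, Tyrobp and Cd52 were not matched.

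**Figure D2:**
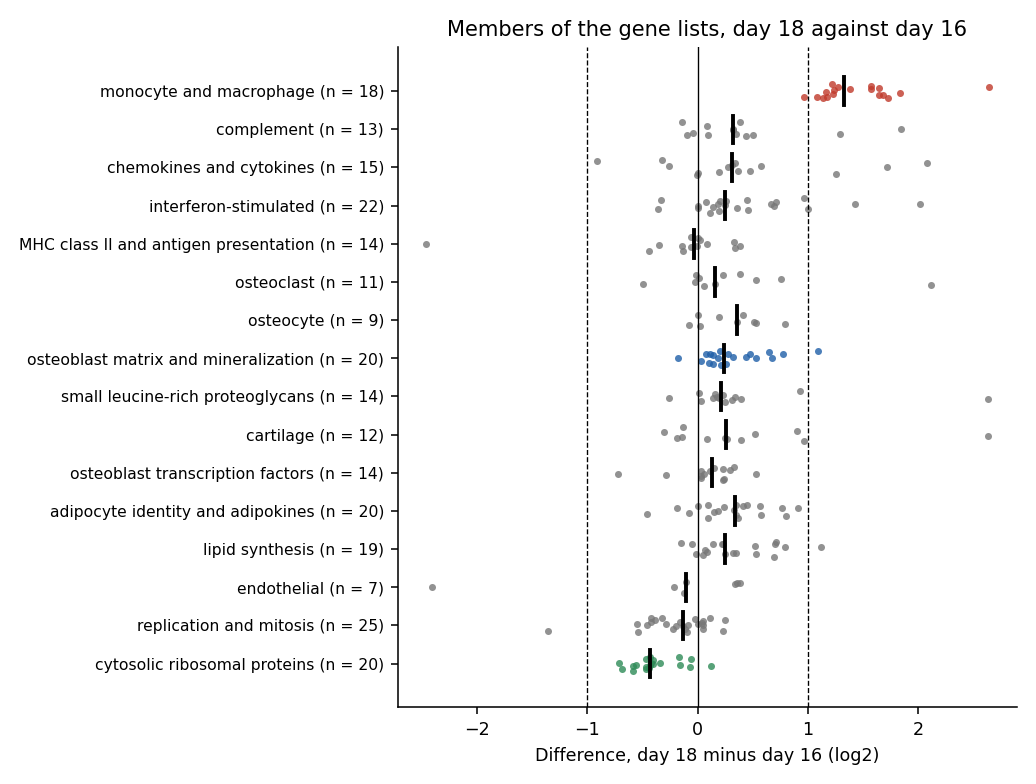
Each point is 1 gene of a list with enough counts to compare, placed by its difference between day 18 and day 16 (log2), and the black bar is the median of the list. Dashed lines mark 2-fold. The monocyte and macrophage list has its median at 1.32, the other lists drawn have medians between -0.43 and 0.36.

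The 15 largest rises among genes with at least 5 TPM, ranked without the lists, held further genes of leukocytes beside pseudogenes, unnamed transcripts and Chad. Among them stood Cd300lh of the CD300 receptor family of myeloid cells (33.5 and 157 counts), the low-affinity Fc receptor Fcgr3 (126 and 406 counts), the leukocyte tetraspanins Cd37 and Cd53, and Clec4d, a C-type lectin of myeloid cells. Aoah, which deacylates bacterial lipopolysaccharide, rose by 1.80 on the log2 scale (1.60 to 2.02). The counts of Fcgr3 and Cd300lh were not whole, so part of their reads was shared with related genes. Of the 15, 3 were pseudogenes with shared reads. One of them, Gm13378, ranked first with 0.44 and 34.9 counts, although it had been at 9.52 TPM on day 14.

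Of 15 chemokines and cytokines that could be compared, 3 were called higher, beside 3.57% of all genes, and 4 were below 0. Ccl3, a chemokine that macrophages release, had 18, 10 and 15 counts on day 16 and 47, 57 and 54 on day 18, a difference of 2.08 (1.60 to 2.62). On day 14 Ccl3 had stood at 4.91 TPM, above its 2.89 TPM on day 16. Ccl8 and Ccl6, also ligands of CC receptors, differed by 1.71 and 1.25. The remaining 12 were within 2-fold, from Il18 at -0.91 upward and including Cxcl12 at 0.00, and the median of the list was 0.31.

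Genes of antigen presentation did not follow. The 14 genes of this list had a median of -0.03 and none was called higher. Cd74, the invariant chain of MHC class II, differed by -0.14, and H2-Aa differed by -0.01. Ciita, the regulator of class II genes, was the only 1 of the 14 called lower, beside 2.91% of all genes. It had 28 counts on day 16 and 4 on day 18, a difference of -2.46 with an interval of -4.56 to -1.08. Its level was only 0.18 and 0.04 TPM, and its difference lay between -4.54 and -0.19 over the 22 alternatives in processing. Interferon-stimulated genes had a median of 0.25, and 3 of 22 were called higher, beside 3.57% of all genes. From day 14 to day 18 the median of the list was -0.02. The called genes were the chemokine Cxcl10 (16 and 57 counts), Rsad2 (40 and 93 counts) and Isg15 at the threshold. Isg15 stood at 34.0 TPM on day 14, 13.5 TPM on day 16 and 26.7 TPM on day 18, so that its day 18 level was not above that of day 14.

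Osteoclasts arise from the same precursors as macrophages when RANKL, the product of Tnfsf11, binds its receptor RANK, the product of Tnfrsf11a. Tnfrsf11a had 13, 14 and 18 counts on day 16 and 52, 62 and 55 on day 18, a difference of 2.11 (1.64 to 2.63). It was still at only 1.32 TPM and was the only call among 11 osteoclast genes compared, beside 3.57% of all genes called higher. The median of these 11 was 0.16, and 3 were below 0. The enzymes with which osteoclasts resorb bone did not change by 2-fold, with Ctsk, the collagen-degrading cathepsin K, at 200 and 193 TPM and Acp5, tartrate-resistant acid phosphatase, at 15.3 and 16.8 TPM. Ctsk is also made by cells that lay down collagen, and Calcr, Ocstamp and Oscar, which mark osteoclasts, were under the count minimum. The ligand Tnfsf11 had 85 and 58 counts, and its decoy receptor Tnfrsf11b went from 6.77 to 11.5 TPM, a difference of 0.79 (0.63 to 0.96). The macrophage growth factors Csf1 and Il34 differed by 0.22 and 0.32.

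The rise of the macrophage genes had begun well before day 16. Of the 73 genes called higher at 5 TPM or more, 53 (72.6%) had already been at least 2-fold higher on days 10 to 14 than on days 2 to 6, beside 12.0% of all genes at that level. These days played no part in choosing the 73. For the monocyte and macrophage list, the median of this earlier difference was 3.47, and the step from day 14 to day 16 had a median of 0.66. Emr1 was at 0.07 TPM on day 2, after the sort, and at 3.00, 6.73 and 17.2 TPM on days 14, 16 and 18. Against day 14, 61 of the 73 were 2-fold higher on day 18, beside 1.42% of all genes at that level. This comparison shares the day 18 library with the choice of the 73.

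**Figure D3:**
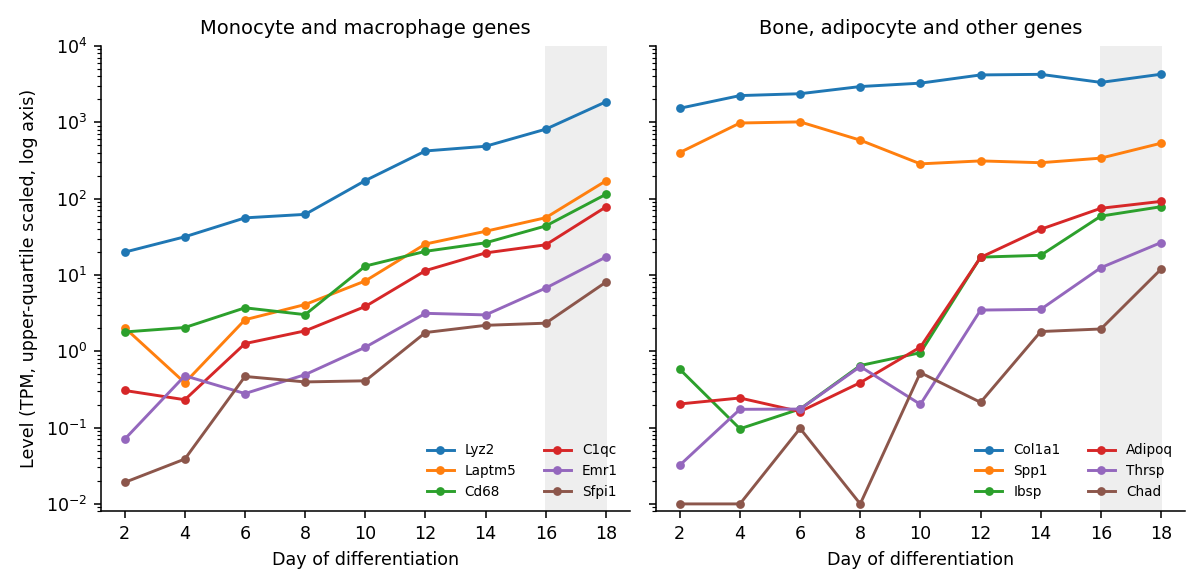
Levels (TPM after upper-quartile scaling, log axis) of 12 genes are drawn over the 9 days of the culture, 1 library a day, with the step from day 16 to day 18 shaded. Values under 0.01 TPM are drawn at 0.01. The 6 macrophage genes climb through most of the culture, while Col1a1 stays between 1526 and 4263 TPM.

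Among the genes of bone and cartilage matrix in the lists, the largest rise was that of Chad, which encodes chondroadherin, a leucine-rich protein of cartilage and bone matrix that binds cells through an integrin. Its counts were 34, 27 and 23 on day 16 and 131, 177 and 141 on day 18. The day 18 lanes were higher, and the difference was 2.63 (2.30 to 2.99), larger than that of any macrophage gene but Aif1 in the lists. Chad was listed at 0 TPM on days 2 and 4 and stood at 1.81 TPM on day 14, 1.96 TPM on day 16 and 11.9 TPM on day 18. It was the only called member of both the cartilage list and the list of small leucine-rich proteoglycans, whose medians were 0.25 and 0.21. Col2a1, the fibrillar collagen of cartilage, differed by 0.26 and Sox9, the transcription factor of chondrocytes, by -0.14. Further genes called at 5 TPM or more that stood outside the lists, and that were picked for mention after their values were seen, were the endothelin receptor Ednrb (319 and 816 counts), the lubricating proteoglycan Prg4 (475 and 921 counts) and the hormone stanniocalcin Stc1 (1002 and 1772 counts).

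The bone matrix genes were shifted upward by a small amount. All but 1 of the 20 genes of the osteoblast matrix and mineralisation list were above 0, beside 7132 of all 14656 genes. The median of the list was 0.23, and 1 of its genes was called higher, beside 3.57% of all genes. That gene was Smpd3, a sphingomyelinase needed for mineralisation, with 38, 33 and 28 counts on day 16 and 58, 60 and 64 on day 18, a difference of 1.09 (0.73 to 1.46). The exception below 0 was Mgp, an inhibitor of mineralisation, at -0.18.

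Spp1, the matrix protein osteopontin, went from 339 to 532 TPM, a difference of 0.65 (0.61 to 0.68). Ibsp, bone sialoprotein, had 1051, 1055 and 1132 counts on day 16 and 1253, 1250 and 1267 on day 18, a difference of 0.44 (0.37 to 0.50). For Ibsp the greater part of the late rise fell in the step before, with 18.1 TPM on day 14, 59.0 TPM on day 16 and 78.4 TPM on day 18. Osteocalcin, which is encoded by near-identical gene copies that share reads, behaved alike, with Bglap at 31.4, 143 and 208 TPM on these 3 days. Its difference between days 16 and 18 was 0.48, and that of the copy Bglap2 was 0.77.

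Type I collagen showed how far a value can rest on day 16. Col1a1 stood at 4249 TPM on day 14, 3331 TPM on day 16 and 4263 TPM on day 18, so that the difference was 0.32 from day 16 but 0.01 from day 14. Sparc, the collagen-binding osteonectin, was at 22577, 21780 and 27451 TPM and remained higher by 0.25 when day 14 was the earlier day. The osteoblast transcription factors had a median of 0.13, with Sp7, which commits cells to bone, at 0.53 (0.36 to 0.71) and Runx2 at 0.03 (-0.01 to 0.07).

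The osteocyte genes that could be compared had a median of 0.36 and none was called. Phex, an endopeptidase that governs phosphate handling, was at 18.9, 26.7 and 37.2 TPM on days 14, 16 and 18. Dmp1, an acidic matrix protein, went from 2.21 to 5.20 and 6.54 TPM over the same days. Sost had 6 and 5 counts on days 16 and 18, and Mepe had none on either day.

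Adipocyte genes also shifted upward without a single call. The 20 genes had a median of 0.33 from day 16 to day 18 and of 0.71 from day 14 to day 16. From day 16 to day 18, 17 of the 20 were above 0, beside 7132 of all 14656 genes. Adipoq, the adipocyte hormone adiponectin, stood at 39.6, 74.7 and 92.0 TPM on days 14, 16 and 18. Car3, a carbonic anhydrase abundant in fat and muscle, stood at 150, 256 and 437 TPM on these days and Plin1, which coats lipid droplets, at 20.1, 28.1 and 46.9 TPM. Among 19 genes of lipid synthesis the median was 0.24, and 1 was called higher, a share near the 3.57% of all genes. It was Thrsp, a regulator of fatty acid synthesis. Its counts were 117, 126 and 138 on day 16 and 226, 249 and 238 on day 18, and its level went from 3.54 TPM on day 14 through 12.4 to 26.6 TPM.

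A few low-level regulators were called as well. Atf3, an immediate early factor of the stress response, had 18 counts on day 16 and 92 on day 18, and Fosl1, a partner of Jun, had 34.6 and 83.9. The other 19 of 21 immediate early genes were within 2-fold, beside 3.57% of all genes called higher. The median of this list was 0.26 from day 16 but -0.06 from day 14. Tcf7, a transcription factor of the Wnt pathway, had 107 and 199 counts, the only call among 20 Wnt targets and antagonists, again near the share of all genes. Kit, a receptor of mast cells and other cells, had 66 and 162 counts, but its TPM, which divides by a length averaged over isoforms, went from 1.62 to 1.22, so its direction differed between the scales. Pecam1, an endothelial marker, had 27 and 4 counts.

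The 14 remaining lists held no gene that differed by 2-fold, and their medians ran from -0.12 for smooth muscle and contractile genes to 0.35 for genes induced by glucocorticoids. Cnn1, the smooth muscle protein calponin, differed by -0.39 and Klf9, a transcription factor induced by glucocorticoids, by 0.58. The antioxidant enzymes Gpx3 and Gstm1 both differed by 0.57. Of the clock genes, the repressor Nr1d1 differed by 0.83 and the activator Npas2 by 0.84, beside a median of 0.04 for 17 such genes. Taken from day 14, Nr1d1 differed by 0.79 but Npas2 by 0.12. Id1, a target of BMP signals, differed by -0.54 (-0.71 to -0.37). Rin3, a regulator of Rab5 in endocytosis, had 828 and 847 counts, a difference of 0.25 (0.11 to 0.39). Its direction turned with the earlier day, at -0.10 from day 14, and its TPM was 30.2, 23.0 and 24.2 on days 14, 16 and 18.

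Genes that fell at 5 TPM or more were mostly short. The 36 genes called lower at 5 TPM or more had a median transcript length of 698 bases, beside 2353 bases for all genes at that level, and 80.6% of them were under 1000 bases, beside 11.8%. Only 15 of the 36 had whole-number counts, beside 71.4% of all genes at that level, and 5 were pseudogenes. The 73 genes called higher leaned the same way, less strongly in length and in whole-number counts. Their median length was 1336 bases, 27.4% were under 1000 bases, 61.6% had whole-number counts and 6 were pseudogenes. Without the 5 TPM minimum, median lengths were 1835 bases for genes called lower and 1997 bases for genes called higher. Of the 36 genes called lower, 1 belonged to a list, namely Birc5, the survivin of dividing cells. It had 117, 103 and 107 counts on day 16 and 28, 42 and 40 on day 18. Its level was 6.04, 15.6 and 5.70 TPM on days 14, 16 and 18, and from day 14 it differed by only -0.43. The remaining 24 genes of replication and mitosis were within 2-fold, so that the share called lower was near the 2.91% of all genes. The median of all 25 was -0.14.

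Among the 15 largest falls, those with whole-number counts were the non-coding RNA 2700069I18Rik, Polr2h, a subunit shared by the nuclear RNA polymerases, Expi, and Otor, a small secreted protein. 2700069I18Rik had 70, 104 and 98 counts on day 16 and 21, 27 and 31 on day 18, a difference of -1.56 (-1.95 to -1.20). Polr2h had 133, 138 and 148 counts on day 16 and 42, 48 and 39 on day 18, a difference of -1.48 (-1.78 to -1.20). Expi had 142 and 45 counts in all, a difference of -1.43, and Otor had 207 and 68, a difference of -1.38. Otor and Expi were also at least 2-fold below their day 14 level, with log2 differences of -1.65 and -1.17, and Polr2h differed from it by -0.92. AF085738, which went from 118 to 41.9 TPM, had stood at 165 TPM on day 14.

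Against day 14, 31 of the 36 were lower on day 18, beside 5020 of all 9823 genes at that level. Their median was -0.55, beside -0.01, and 6 (16.7%) were lower by 2-fold, beside 0.122%. This comparison shares the day 18 library with the choice of the 36. Snrpe, a core protein of the spliceosome that was named after its values were seen, was at 51.3 TPM on day 14, 84.9 TPM on day 16 and 33.8 TPM on day 18. Its transcript is 481 bases long.

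Ribosomal protein genes, whose transcripts are short, showed the same course in a weaker form. Of the 20 genes examined, 19 were below 0 on day 18, beside 7524 of all 14656 genes. None of the 20 was called, and their median was -0.43. Rpl23 was at 342, 429 and 266 TPM on days 14, 16 and 18, the largest difference in the list at -0.71. Taken from day 14 instead, the median of the list was -0.22, and with a running median over transcript length removed it was -0.28.

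Short transcripts in general shared this course. Of the genes with enough counts on days 14, 16 and 18, the 151 under 500 bases had a median of 0.26 from day 14 to day 16, of -0.35 from day 16 to day 18 and of -0.12 from day 14 to day 18. The 1242 genes of 500 to 1000 bases had medians of 0.14, -0.17 and -0.06. For the 5863 genes of 2000 to 4000 bases the corresponding medians were 0.00, 0.02 and 0.01. The first and the second of these steps share the day 16 library, so that a property of this library and one of the cells on day 16 cannot be told apart. The monocyte and macrophage list had a median transcript length of 1202 bases, and with the running median over length removed its median difference was 1.49.

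**Figure D4:**
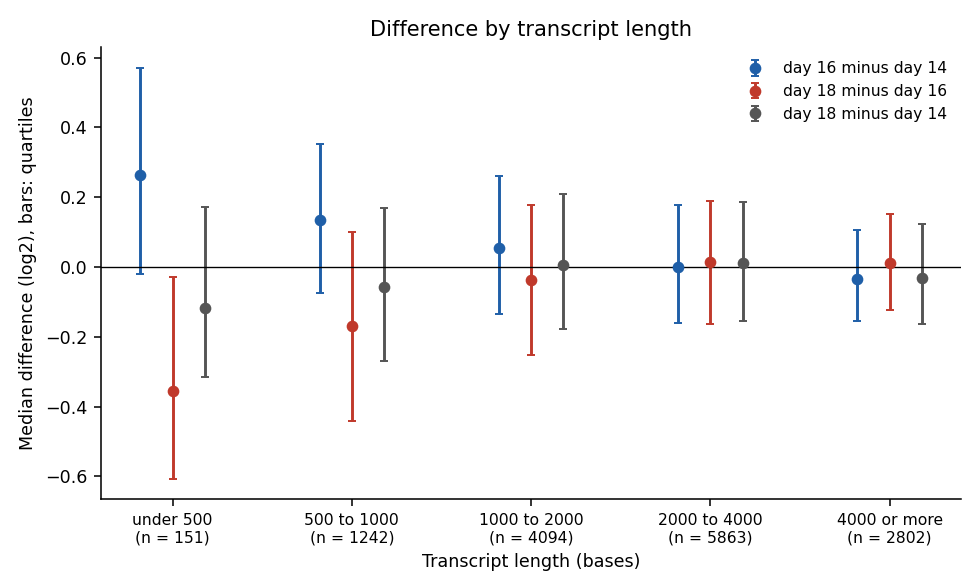
The median difference (log2) of genes in 5 classes of transcript length is shown for day 16 minus day 14, day 18 minus day 16 and day 18 minus day 14, with bars from the lower to the upper quartile over genes. Genes under 500 bases lie at 0.26, -0.35 and -0.12, and genes of 2000 to 4000 bases lie within 0.02 of 0.

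Placed among the 8 steps of 2 days, the last was of middle size. With at least 5 TPM, 109 genes (1.11%) differed by 2-fold from day 16 to day 18, beside 59 (0.601%) from day 14 to day 16, 43 from day 12 to day 14 and 69 from day 10 to day 12. The 4 earlier steps each held more, from 170 to 441 genes, and the step from day 8 to day 10 held the most. With every library thinned to the smallest total, 4.36% of all genes differed by 2-fold in the last step, beside 3.43%, 2.90% and 3.42% in the 3 steps before it, taken backwards from day 14 to 16. Neighbouring steps share a library.

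**Figure D5:**
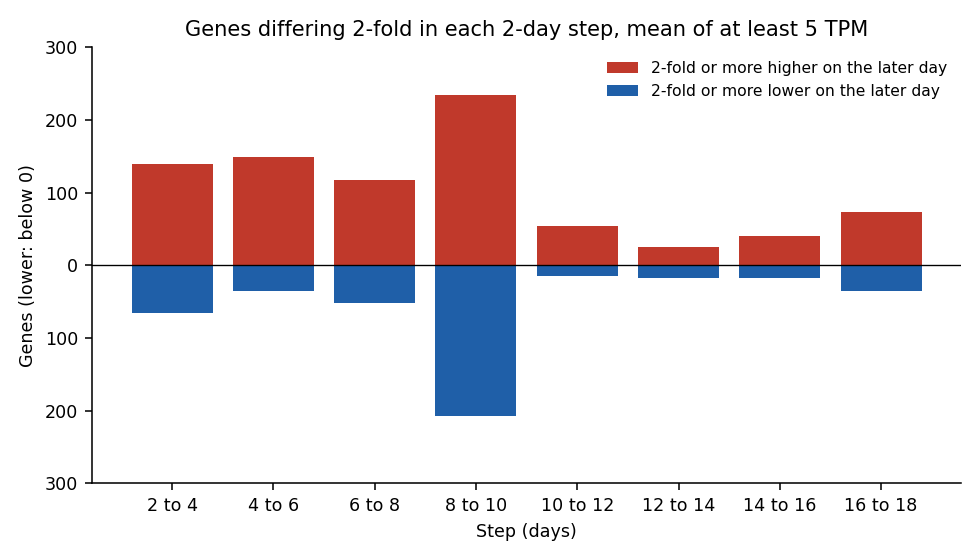
Bars give the number of genes with a mean of at least 5 TPM that were 2-fold or more higher (above 0) or lower (below 0) on the later day of each 2-day step, with 1 library a day. The last step holds 73 higher and 36 lower genes, more than each of the 3 steps before it.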

How the data were processed

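The expected (estimated) counts and TPM per gene were deposited by the authors, who used Bowtie 0.12.9 against the NCBIm37 transcriptome and then RSEM (1.2.8 in the submitters' processing notes). These deposited values were taken as given, without normalization between samples, whereas the paper scaled its levels to the upper quartile of each sample. RSEM shares reads among similar genes, and the deposited TPM divide each estimated count by an effective length. Whether the libraries kept strand is not given in the sources used here, so overlapping genes may share reads. From the counts, the 3 profiles of a day were summed, genes with 30 or more counts over both days kept, each day scaled to its 75th percentile, and log2 ratios taken with 0.5 counts added. Exact 95% Clopper-Pearson intervals, which cover counting error only, used counts rounded to whole numbers. TPM were divided by the 75th percentile of each profile and multiplied by the mean of these percentiles, so that they no longer add up to a fixed sum. The gene lists, the genes compared and the 2-fold threshold were chosen with earlier results of these data known. Named genes were the 15 largest rises and falls at 5 TPM or more, the 5 largest gains and losses of TPM, called list members or up to 4 others a list, and preset markers. Symbols matched 37205 of 37991 identifiers in the GENCODE annotation of NCBIM37. The ratio and its interval were tested on simulated data. Alternatives used edgeR 4.0.16 and DESeq2 1.42.0 (scaling factors only) in R 4.3.3, other minima, thresholds and scales, and single lanes. Python 3.11.15, numpy 2.4.6, pandas 2.3.3 and scipy 1.17.1 were used.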

Additional observations from a re-analysis of the deposited data

How the results depend on the processing

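No paired analysis was possible because the comparison comes from no test, with 1 library a day. The counts of 523 genes higher and 426 lower became 176 and 126 on TPM with a pseudocount of 1, 1013 and 944 at a count minimum of 10, 231 and 134 at 100, and 2438 and 2469 at 1. They became 1029 and 1087 at a 1.5-fold threshold, 113 and 96 at 4-fold, and 271 and 230, 285 and 248, and 291 and 227 in single lanes. Whole-number counts gave 257 lower genes. Leaving out 1 profile gave 425 to 502 higher and 336 to 441 lower. Alternatives chosen after seeing the data gave 73 and 36 at 5 TPM or more, and 669 and 356 from day 14. TMM, DESeq2 and total scaling moved neither count by over 1.5 times.

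The median of the monocyte and macrophage list lay between 1.17 and 2.00 in all 22 alternatives, that of the osteoblast matrix list between 0.20 and 0.28, and that of ribosomal proteins between -0.46 and -0.22. Among the named genes called 2-fold, the direction reversed for Kit on TPM (-0.38 and -0.24 at pseudocounts of 0.1 and 1 after scaling, -0.38 as deposited) and for Gm10241 in 1 lane (-1.12). From day 14 it reversed for Gm9843 (7.31, close to 0 on day 14 and so set by the counts added), Gm17711 (0.66) and Isg15 (-0.34). Called genes that were not named were not followed in this way, and some of them also turned. Vill, called higher with 52 and 98 counts, went from 8.17 to 2.64 TPM. Magohb, called lower, differed by 0.40 from day 14. Of 89 named genes and 32 lists within 2-fold, 15 genes and 14 lists changed sign under at least 1 alternative, 10 genes and 8 lists of them from day 14. The cause was not tested. With 1 library a day, no difference carries an error between cultures, and a difference of few counts is limited by depth.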
